A study of Mus musculus with 10 samples.

Results

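The ADAM genes encode membrane-anchored proteins with a disintegrin and a metalloproteinase domain, and their members were taken as every gene of the deposited tables whose symbol is Adam followed by a number and, in some, the letter a or b, so that the secreted Adamts relatives are left out. The rule found 33 of 20007 genes in the table of adult testis and 20 of 17816 genes in the table of Sertoli cells at 7 days after birth. Of these, 31 members in adult testis and 10 at day 7 reached 0.5 FPKM in at least 3 adult or 2 day 7 samples and were tested. FPKM is the number of sequenced fragments per kilobase of transcript, scaled to the mapped fragments of the library, and it is the scale on which levels of different genes are compared here. The adult samples were whole testes, 3 labelled WT and 3 labelled RNF20 conditional knockout (cKO). The day 7 samples were, by their cell type label and the methods, primary Sertoli cells, cultured and passaged after isolation (the growth protocol in the labels names adult tissue for every sample), 2 from Rnf20 Flox/Flox mice (labelled WT) and 2 from Amh-Rnf20-/- mice (labelled RNF20 conditional knockout). In the Amh-Rnf20-/- mice, Cre recombinase driven by the Amh promoter, which is active in Sertoli cells, removes the floxed exons of Rnf20, an E3 ubiquitin ligase of histone H2B, and the other cells of the testis keep the gene. The Flox/Flox controls carry the loxP sites too. The age and the Flox status of the adult animals are not given in the sources used here. The methods speak of individual mice for the day 7 cells only, with more of them in a group than the 2 samples analysed here, and nothing says that the adult samples of a group came from separate animals, so the p-values measure the spread between these samples, which may be technical.

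ADAM proteins fall into broad kinds that are used here to order the results. Some, made in developing male germ cells, are carried to the sperm surface or help other sperm proteins to get there. ADAM1A, ADAM1B and ADAM2 are the subunits of the fertilin complexes, ADAM3 (cyritestin) is needed for sperm to pass the uterotubal junction and to bind the zona pellucida, and ADAM4, ADAM6 and the testases (ADAM24, ADAM25, ADAM26 and ADAM34) are further sperm or spermatid members. The others are made in many somatic tissues, where active proteases such as ADAM10 and ADAM17 cut membrane proteins near the cell surface and release Notch fragments, growth factors and cytokines, while ADAM11, ADAM22 and ADAM23 lack the catalytic site and serve as adhesion molecules and as receptors of LGI proteins. ADAM7 and ADAM28 are best known in the epididymis. Of the 33 adult members, 20 were classed as sperm members, 11 as somatic members and 2 as epididymal members.

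The active site of the catalytic members binds a zinc ion through a short signature, and the presence of that signature is a property that the rule of the symbols did not use. An in-frame search of the longest annotated coding sequences (GENCODE M21, GRCm38) found it in 20 of the 33 members and in 0.3159% of 21843 mouse coding sequences. The site is printed for members that represent each outcome below, read 5′ to 3′ on the coding strand. Capitals mark the codons of the 3 zinc-binding histidines, of the glutamate that follows the first of them and of the conserved glycine. Adam10, Adam17, Adam12 and Adam8 rose in the adult cKO samples, and the other printed members fell.
Adam10: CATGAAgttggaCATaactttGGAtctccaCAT
Adam17: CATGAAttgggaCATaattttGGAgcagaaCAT
Adam12: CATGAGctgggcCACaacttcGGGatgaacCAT
Adam8: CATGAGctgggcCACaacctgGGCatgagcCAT
Adam1a: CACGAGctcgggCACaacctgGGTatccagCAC
Adam1b: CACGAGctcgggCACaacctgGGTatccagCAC
Adam20: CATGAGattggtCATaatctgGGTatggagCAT
Adam39: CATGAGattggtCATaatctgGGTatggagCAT
Adam26a: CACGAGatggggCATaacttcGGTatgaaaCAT
Adam26b: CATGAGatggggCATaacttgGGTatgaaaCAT

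On GRCm38 the site of Adam10 lies at chr9:70754296-70761585 on the plus strand, where it is split between coding exons 9 and 10. The site of Adam17 is at chr12:21336732-21336764 on the minus strand, in coding exon 12, and that of Adam8 is at chr7:139987893-139987925 on the minus strand, in coding exon 11. Adam12 holds it in coding exon 11, at chr7:133961158-133961190 on the minus strand. In Adam1a (chr5:121520089-121520121, minus strand) and Adam1b (chr5:121501937-121501969, minus strand) it lies in the only coding exon, and the sites had 0 mismatches over 33 bases. Adam20 (chr8:40795917-40795949, plus strand) and Adam39 (chr8:40825636-40825668, plus strand) also had 0 mismatches. Adam26a (chr8:43569435-43569467, minus strand) and Adam26b (chr8:43520947-43520979, minus strand) had 2. Across the whole coding sequence, Adam6a and Adam6b were 94.62% identical, Adam26a and Adam26b 93.94%, Adam20 and Adam39 87.99%, and Adam1a and Adam1b 72.06%. How the counting divided reads within such pairs is uncertain, and so are their separate values.

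The libraries held between 15431912 and 16574144 counts in adult testis and between 17477268 and 17705347 at day 7. Rnf20 itself, read over the whole transcript, was lower in cKO at day 7 and not in adult testis, and passed the test in neither. In adult testis it was at 4.89, 3.32 and 4.09 FPKM in WT and at 9.16, 5.76 and 9.85 in cKO (log2 fold change 0.12, edgeR quasi-likelihood test with Benjamini-Hochberg adjustment over all genes tested, adjusted p = 0.688), where the FPKM values were higher in each cKO sample and the TMM-scaled counts overlapped. At day 7 it was at 16.6 and 16.01 in WT and at 10.2 and 12.6 in cKO (log2 fold change −0.49, edgeR, adjusted p = 0.222), with groups that did not overlap. Counts over the deleted exons alone were not analysed here. Adult cKO replicate 1 stood apart from the other cKO samples. Its chi-square per degree of freedom was 92.8 and 124 against replicates 2 and 3, which differed from each other by 22.4. The summed FPKM of 17 Sertoli cell markers was 3510 there against 7271 and 8465. Of the 17, 13 were lowest among the cKO samples in replicate 1 and 11 were under 0.5 of the mean of the other cKO samples, such as Sox9 (1.20 FPKM against 9.86 and 12.65), while others, such as Gata4 (53.5 to 57.7 over the cKO samples), lay close together and Inha was highest there. At day 7 the cKO samples differed from each other by 36.2 and the WT samples by 2.73. Adult values of named genes are repeated without a cKO replicate where that changes a call or moves a called value by over 1.5 times. For the ADAM genes tested at day 7, changes with 1 sample left out are given.

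The marker lists of most other cell types moved with the adult labels. The summed FPKM of 12 spermatid markers was between 126234 and 195218 in WT and between 4.67 and 97.2 in cKO, and Prm1, Acrv1 and Izumo1 were listed at 0 in cKO replicate 1. The sum of 12 spermatocyte markers was between 5234 and 5462 in WT, 3.67 in cKO replicate 1 and 332 and 479 in cKO replicates 2 and 3. Most of the WT sum was Ldhc, with a mean of 3837 FPKM. Of the 12, 8 were lower and 4 were not called (Sycp1, Dmc1, Tex101 and Hormad1), and all 12 were lower without cKO replicate 1. The size of the fall differed, and Dmc1 went from a mean of 7.08 FPKM to 4.79. The sums of 7 macrophage markers (33.1 to 36.5 in WT, 1102 to 1937 in cKO), 6 stromal fibroblast markers (40.5 to 53.4 in WT, 1303 to 3390 in cKO) and 5 Leydig cell markers (3994 to 5601 in WT, 62976 to 87350 in cKO) were higher, and all 18 of these genes rose, among them Itgam and Ptprc, which reached 0.5 FPKM in cKO samples only, so that the filter fixed their direction. Of 7 peritubular myoid markers, 5 rose and Actg2 fell by 7.73 on the log2 scale (sums of 343 to 409 in WT, 463 to 677 in cKO). Of 5 endothelial markers 4 rose, with the direction of Kdr fixed by the filter. The Sertoli cell markers had sums of 845 to 1110 in WT and 3510 to 8465 in cKO, of which Clu alone made up 1857 to 4953 in cKO. Of 16 tested, 9 were higher and 1 lower, and 14 were higher and 1 lower without cKO replicate 1. For Sox9, Fshr, Inhbb and Dhh the lowest cKO value lay under every WT value and the highest above every WT value. The spermatogonium markers went both ways. Their sums overlapped, at 283 to 316 in WT and 62.0, 329 and 470 in cKO, and of 12 tested 3 were higher (Zbtb16 with its direction fixed by the filter), 5 lower and 4 not called, and 4 were higher and 7 lower without cKO replicate 1. Groups did not overlap for 10 of the 12, against 85.5% of all genes, with cKO below for 7, against 43.1%. For comparison with all these lists, 40.9% of all genes tested were higher and 40.6% lower. Without cKO replicate 1, 7207 of 15919 genes were higher and 6550 lower. The part of these cell types in the results on ADAM genes was not tested. In whole testis, fewer cells of a type and less RNA per cell cannot be told apart.

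In adult testis, the sperm members fell and most somatic members rose. Of the 31 members tested, 30 passed an adjusted p of 0.05, 9 higher and 21 lower in cKO, where 81.5% of all 15919 genes tested passed, 40.9% higher and 40.6% lower. The 20 sperm members were all lower and Adam22 was the only somatic member that was lower, while 9 somatic members were higher and Adam11 did not pass. Groups did not overlap for 30 members, against 85.5% of all genes, with cKO above for 9 (42.4% of all genes) and below for 21 (43.1%). With an adjusted p under 0.001 and a change of more than 1 on the log2 scale, 20 members passed, 8 higher and 12 lower, against 46.7% of all genes, 23% higher and 23.7% lower. The sperm members Adam6a, Adam6b, Adam21, Adam26b and Adam34 reached 0.5 FPKM in WT samples only, and the somatic members Adam12, Adam19, Adam23 and Adam33 in cKO samples only, so for these 9 the filter already required a difference. The median log2 fold change was −6.49 over the sperm members, 2.38 over the somatic members and 0.01 over all genes tested. Without cKO replicate 1, all 20 sperm members were lower (median −5.85), 9 somatic members were higher and 2 lower (median 2.67), while 7207 of 15919 genes were higher and 6550 lower, with a median of 0.15.

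**Figure D1:**
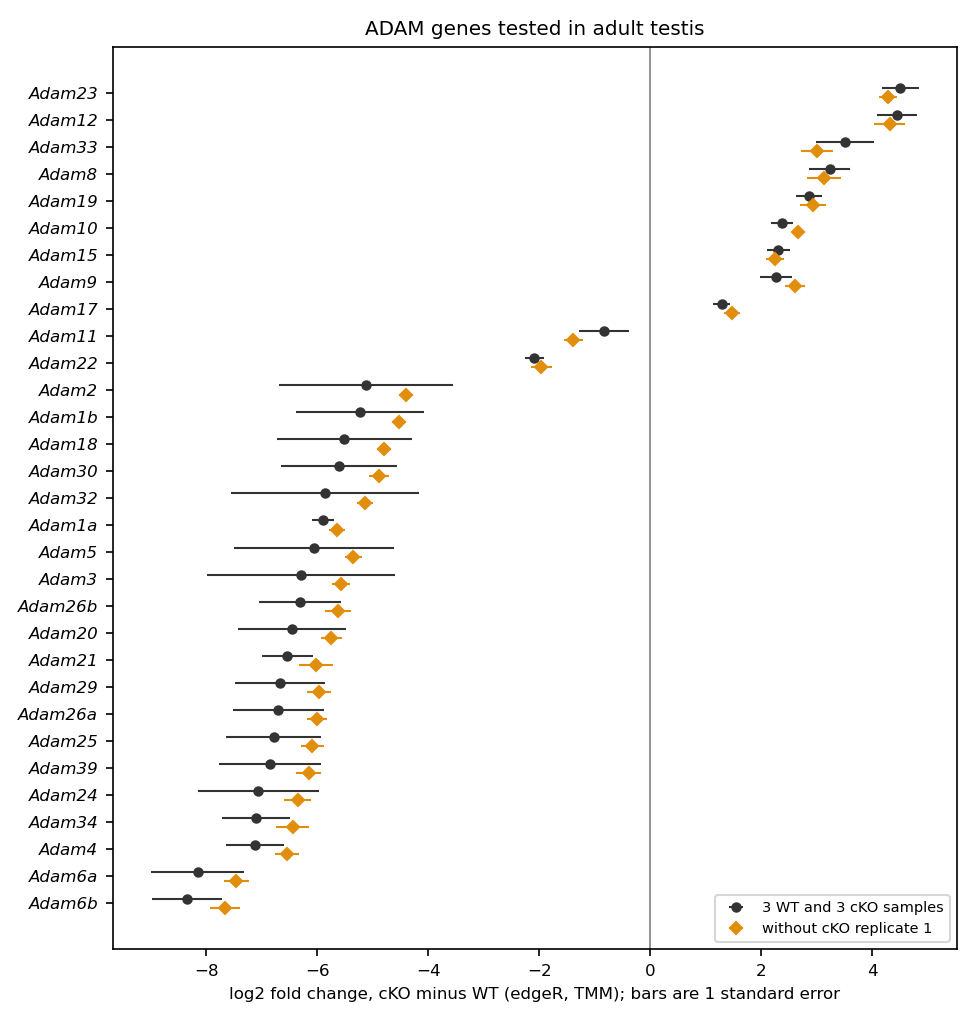
Log2 fold change (cKO minus WT, edgeR with TMM scaling) of the 31 ADAM genes tested in adult testis, one row per gene. Circles use 3 WT and 3 cKO samples, diamonds leave out cKO replicate 1, bars are 1 standard error, and the sperm members lie between −8.34 and −5.12 with shorter bars in most without that sample.

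The most abundant members of the WT testis were Adam5, Adam3, Adam32 and Adam2, the only ones above a mean of 100 FPKM. Adam5, a sperm surface member without the zinc signature, was at 589, 545 and 601 FPKM in WT and at 0.36, 22.8 and 25.1 in cKO, in the order of the replicates, a log2 fold change of −6.06 ± 1.43 (SE, edgeR, adjusted p = 0.00775). Adam3 (cyritestin) was at 536, 502 and 510 FPKM in WT and at 0.07, 18.4 and 18.3 in cKO (−6.29 ± 1.70, edgeR, adjusted p = 0.0134). Both genes were near 0 in cKO replicate 1 and at a few percent of WT in the other cKO samples, and no cKO sample came near a WT sample. The changes without cKO replicate 1 were −5.35 for Adam5 and −5.57 for Adam3.

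Adam32 was at 387, 366 and 399 FPKM in WT and at 0.03, 17.7 and 19.01 in cKO (−5.87 ± 1.69, edgeR, adjusted p = 0.0174). Adam2, which encodes fertilin beta, was at 126, 118 and 124 FPKM in WT and at 0, 9.51 and 10.2 in cKO (−5.12 ± 1.57, edgeR, adjusted p = 0.0218). These are the least secure calls among the sperm members, and the spread that makes them so lies within the cKO group. Without cKO replicate 1, the change of Adam2 was −4.40 ± 0.12 and that of Adam32 −5.15 ± 0.14 (edgeR, adjusted p = 1.52e-08 for both). Without cKO replicate 2 or replicate 3, neither gene passed, with adjusted p of 0.0659 and 0.0706 for Adam2 and of 0.0545 and 0.0583 for Adam32 (edgeR). Adam2 also failed when any of the WT replicates was left out, with adjusted p between 0.0519 and 0.0532 (edgeR).

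Adam18, a further sperm member of several exons, was at 57.9, 52.4 and 53.9 FPKM in WT and at 0, 3.05 and 3.60 in cKO (−5.52 ± 1.22, edgeR, adjusted p = 0.00573). Adam1b, a fertilin alpha gene, was at 47.8, 44.7 and 52.6 FPKM in WT and at 0.05, 3.32 and 3.77 in cKO (−5.23 ± 1.15, edgeR, adjusted p = 0.00569). Adam18 changed by −4.80 and Adam1b by −4.53 without cKO replicate 1. The neighbour of Adam1b, Adam1a, the other fertilin alpha gene, differed in pattern within the cKO group. Adam1a was at 74.9, 75.8 and 78.2 FPKM in WT and at 1.85, 2.31 and 2.89 in cKO (−5.89 ± 0.20, edgeR, adjusted p = 2.70e-05). It kept 83 counts in cKO replicate 1, beside 106 and 126 in the other cKO samples, and was the only sperm member there at a level like theirs.

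**Figure D2:**
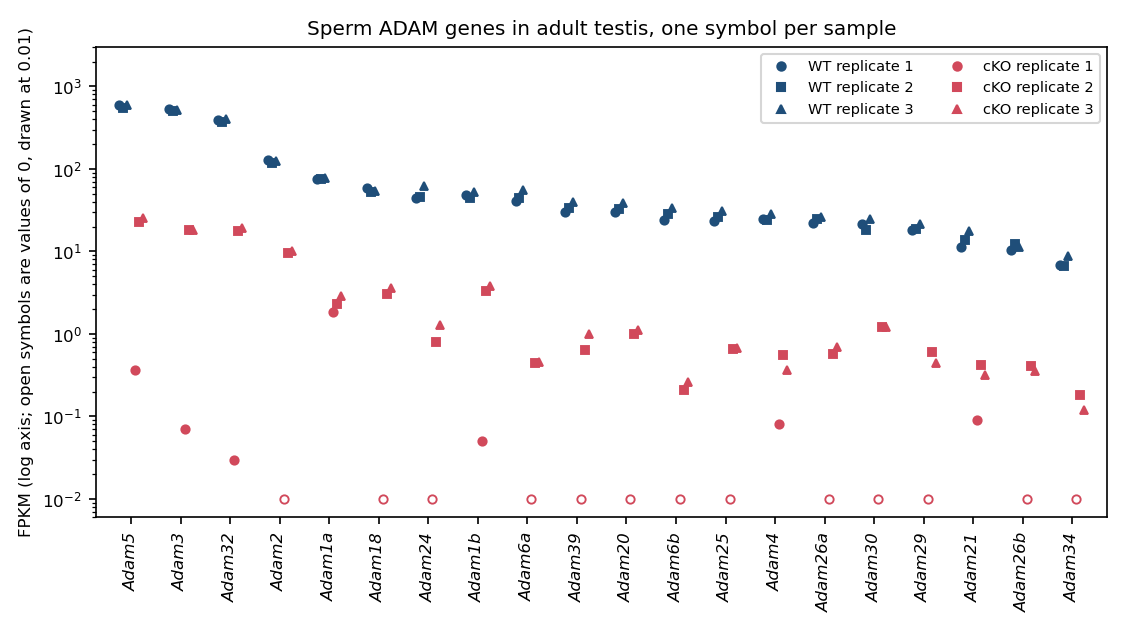
FPKM (log axis) of the 20 sperm ADAM genes in each adult sample, ordered by their WT mean, with symbols for the replicates and open symbols, drawn at 0.01, for values of 0. WT samples lie above cKO samples for every gene, and cKO replicate 1 is at 0 for 13 of them and at 1.85 for Adam1a.

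In cKO replicate 1, 13 of the 20 sperm members had 0 counts, 17 had at most 3, and the members other than Adam1a were at 25.7% or less of the mean of cKO replicates 2 and 3 as a share of total counts. A count of 0 allows up to 3 counts at this depth, for counting error only, so Adam2 was at least 1522-fold lower there than the WT mean as a share of total counts, Adam24 at least 699-fold and Adam18 at least 611-fold. The other cKO samples held between 4 and 993 counts of each sperm member, and the WT samples between 246 and 24975. The summed FPKM of the sperm members was 2127, 2033 and 2216 in WT, 2.53 in cKO replicate 1 and 84.7 and 91.1 in cKO replicates 2 and 3. That sum made up 99.0% to 99.1% of the family's FPKM in WT and 1.78%, 38.6% and 40.0% of it in cKO. The cKO samples thus differed among themselves in the summed level of the sperm members. The sums of the spermatocyte markers (3.67 against 332 and 479) and of the spermatid markers (4.67 against 97.2 and 54.4) were also lowest in cKO replicate 1. A link between these values was not tested.

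The smallest shares of the WT level remained in Adam6a and Adam6b, which lie next to each other in the immunoglobulin heavy chain region of chromosome 12 and are needed for male fertility. Adam6a was at 40.6, 44.9 and 55.8 FPKM in WT and at 0, 0.44 and 0.46 in cKO (−8.15 ± 0.84, edgeR, adjusted p = 0.000223). Adam6b was at 24.1, 28.6 and 33.4 FPKM in WT and at 0, 0.21 and 0.26 in cKO (−8.34 ± 0.63, edgeR, adjusted p = 7.56e-05). Their cKO means were 0.637% and 0.546% of the WT means, the lowest of the sperm members. At most 16 counts of Adam6a and 8 of Adam6b were seen in any cKO sample, and the assignment of reads between these near-identical genes is uncertain. Adam4, a further sperm member, was at 25.0, 23.8 and 28.3 FPKM in WT and at 0.08, 0.55 and 0.36 in cKO (−7.12 ± 0.52, edgeR, adjusted p = 6.88e-05). Adam6a changed by −7.46 and Adam6b by −7.66 without cKO replicate 1, and without cKO replicate 2 Adam4 changed by −7.72.

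Promoter windows of 250 bases before to 50 after the start site (RefSeq, GRCm38.p6) were at hand for 17 of the 33 members, with 19 windows in all. The windows of Adam6a (chr12:113543658-113543957, plus strand) and Adam6b (chr12:113489315-113489614, plus strand) are shown because these genes fell most, and that of Adam10 (chr9:70678732-70679031, plus strand) because it is a somatic member that rose. Capitals mark TATAAA in the former pair and TGACG in Adam10, each found on either strand.
Adam6a: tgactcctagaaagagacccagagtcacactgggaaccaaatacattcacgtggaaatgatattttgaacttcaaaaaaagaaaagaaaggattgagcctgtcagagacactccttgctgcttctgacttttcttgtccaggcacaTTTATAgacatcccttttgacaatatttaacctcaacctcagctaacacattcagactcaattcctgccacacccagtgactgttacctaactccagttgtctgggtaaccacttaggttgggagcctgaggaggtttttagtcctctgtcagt
Adam6b: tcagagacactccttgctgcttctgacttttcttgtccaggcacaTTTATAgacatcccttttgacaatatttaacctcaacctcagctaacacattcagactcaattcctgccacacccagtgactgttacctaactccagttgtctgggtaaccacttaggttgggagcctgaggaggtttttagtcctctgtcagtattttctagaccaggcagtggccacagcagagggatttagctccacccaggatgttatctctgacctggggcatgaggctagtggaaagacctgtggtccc
Adam10: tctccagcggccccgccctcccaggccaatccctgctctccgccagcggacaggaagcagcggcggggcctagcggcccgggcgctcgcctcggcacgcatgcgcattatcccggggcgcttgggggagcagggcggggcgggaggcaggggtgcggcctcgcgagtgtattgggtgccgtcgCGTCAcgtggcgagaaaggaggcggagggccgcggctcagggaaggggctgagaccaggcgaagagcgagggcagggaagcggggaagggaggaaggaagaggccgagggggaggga

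The full palindrome TGACGTCA, the letters bound by CREB family factors, was in 0 of 10 sperm windows and 0 of 9 somatic windows, against 1.79% of 32851 windows of all genes. The shorter TGACG, which the palindrome contains, was in 0 of the sperm windows and in 1 of the somatic windows, that of Adam10, against 20.8% of all windows. TATAAA was in 3 of the 10 sperm windows, those of Adam6a, Adam6b and Adam29, and in 0 of the 9 somatic windows, against 13.6% of all. The windows of Adam6a and Adam6b share an identical run of 199 bases that holds the match, so these are copies of 1 sequence. Several of the 9 somatic windows belong to Adam19, and those of Adam20 and Adam25 are alike over long runs, so the windows are not all independent. GTTGCC was in 1 sperm and 1 somatic window, against 12.5% of all. A match of letters is a description of these windows only.

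The testases and their relatives on chromosome 8 fell in common. Adam24 (testase 1) was at 44.6, 46.2 and 61.4 FPKM in WT and at 0, 0.80 and 1.28 in cKO (−7.06 ± 1.10, edgeR, adjusted p = 0.00124). Adam25 was at 23.6, 26.3 and 30.8 FPKM in WT and at 0, 0.65 and 0.67 in cKO (−6.79 ± 0.86, edgeR, adjusted p = 0.000509). Adam26a was at 22.2, 24.4 and 26.0 FPKM in WT and at 0, 0.57 and 0.70 in cKO (−6.70 ± 0.82, edgeR, adjusted p = 0.000444). In each, the cKO group lay below the WT group and its replicate 1 was at 0. Without that sample the changes were −6.35, −6.09 and −6.001, and without cKO replicate 3 that of Adam24 was −7.66.

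Adam26b was at 10.3, 12.1 and 11.3 FPKM in WT and at 0, 0.41 and 0.35 in cKO (−6.31 ± 0.74, edgeR, adjusted p = 0.000363). Adam34, which overlaps another gene model, Adam34l, was the least abundant sperm member, at 6.83, 6.68 and 8.74 FPKM in WT and at 0, 0.18 and 0.12 in cKO (−7.11 ± 0.61, edgeR, adjusted p = 0.000116). Reads of the overlapping models may have been divided between them. Adam20 was at 29.8, 32.6 and 38.4 FPKM in WT and at 0, 1.0 and 1.12 in cKO (−6.45 ± 0.97, edgeR, adjusted p = 0.00109). Its near copy Adam39 was at 29.9, 33.4 and 39.1 FPKM in WT and at 0, 0.63 and 1.01 in cKO (−6.85 ± 0.92, edgeR, adjusted p = 0.000642). The pair had like levels in each WT sample. Leaving out cKO replicate 1 gave −5.62 for Adam26b, −6.44 for Adam34, −5.74 for Adam20 and −6.15 for Adam39. That of Adam34 was −7.78 without cKO replicate 2, and that of Adam39 was −7.47 without cKO replicate 3.

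The remaining sperm members lie outside that cluster. Adam29 was at 17.96, 18.7 and 21.7 FPKM in WT and at 0, 0.60 and 0.44 in cKO (−6.67 ± 0.81, edgeR, adjusted p = 0.000424). Adam30 was at 21.4, 18.1 and 24.7 FPKM in WT and at 0, 1.22 and 1.20 in cKO (−5.60 ± 1.05, edgeR, adjusted p = 0.00279). Adam21 was at 11.2, 13.8 and 17.7 FPKM in WT and at 0.09, 0.42 and 0.32 in cKO (−6.54 ± 0.47, edgeR, adjusted p = 6.53e-05). All 3 had groups that did not overlap. Adam29 changed by −5.97 and Adam30 by −4.89 without cKO replicate 1, and without cKO replicate 2 Adam29 changed by −7.33.

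The sperm members differed in gene structure. Of the 20, 15 have a coding sequence in 1 exon, and Adam2, Adam3, Adam5, Adam18 and Adam32 have 19 to 22 coding exons. In cKO replicates 2 and 3, the former retained a median of 2.60% of the WT mean FPKM (0.819% to 7.33%) and the latter a median of 4.78% (3.55% to 8.03%). Over all 3 cKO samples the medians were 1.75% and 3.19%. The ranges overlapped, and Adam1b, a gene of 1 coding exon, was second to Adam2 in the remaining level. The 11 sperm members with the zinc signature retained a median of 2.62% and the 9 without it a median of 3.55% in cKO replicates 2 and 3. These are descriptions of the members, with no test.

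**Figure D3:**
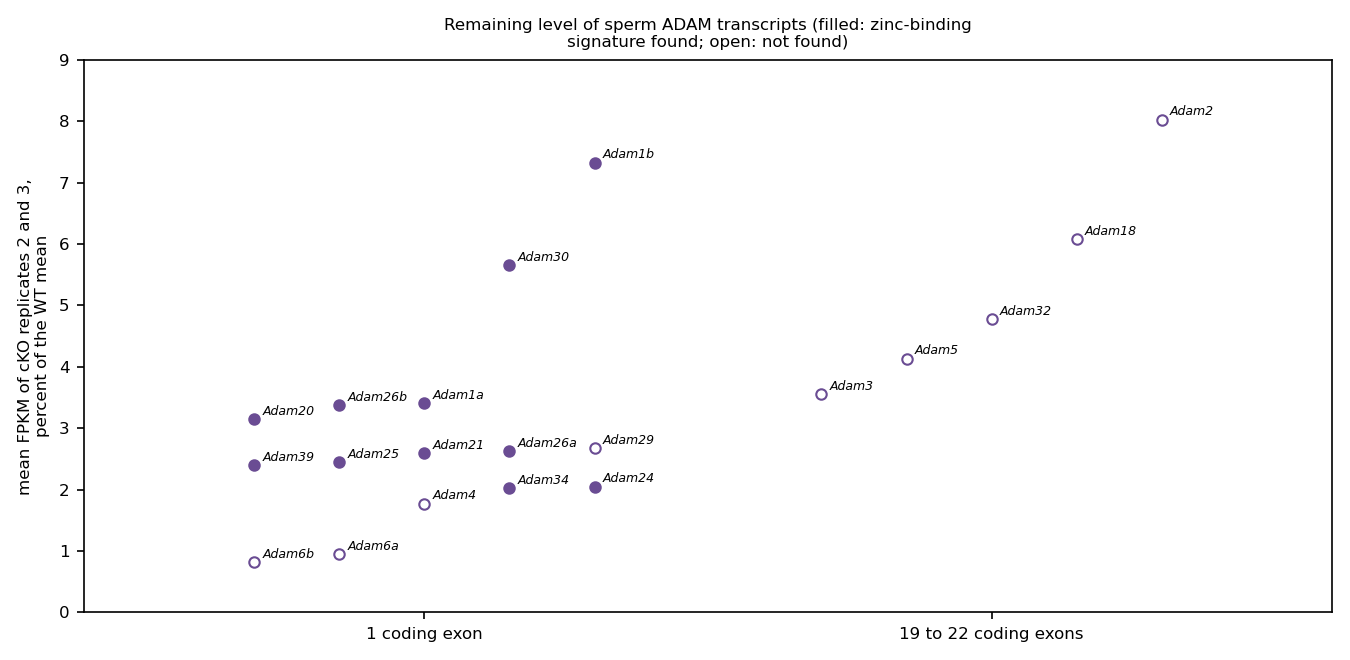
Mean FPKM in adult cKO replicates 2 and 3 as a percent of the WT mean (y axis) for the 20 sperm ADAM genes, split by the number of coding exons, with points spread sideways for legibility. Filled points have the zinc-binding signature, and levels run from 0.819% for Adam6b to 8.03% for Adam2.

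Neighbouring members could differ in direction. Chromosome 8 holds 13 of the 33. At its proximal end Adam18, Adam3, Adam5, Adam32 and Adam9 follow each other on the minus strand, with 2476 bases between Adam18 and Adam3, 715 between Adam3 and Adam5, 11773 between Adam5 and Adam32 and 692 between Adam32 and Adam9 (chr8:24602246-25017040, GRCm38). Adam32 and its 3 sperm neighbours fell, with log2 fold changes between −6.29 and −5.52 (−5.57 to −4.80 without cKO replicate 1), and Adam9, a somatic metalloproteinase, rose. The coding sequences of Adam32 and Adam9 were 45.56% identical.

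Among the somatic members, the proteases with the zinc signature rose, 8 of 8, where 40.9% of all genes rose. For Adam12, Adam19 and Adam33 among them the filter had fixed the direction. Adam9 was at 2.91, 1.83 and 3.0 FPKM in WT and at 14.3, 24.4 and 29.1 in cKO (2.27 ± 0.29, edgeR, adjusted p = 0.000527). Adam10, the alpha-secretase that also cuts Notch receptors, was at 2.95, 2.59 and 3.39 FPKM in WT and at 20.2, 30.0 and 34.2 in cKO (2.38 ± 0.20, edgeR, adjusted p = 0.000105). Adam17, the TNF-converting enzyme, was at 3.24, 2.59 and 3.52 FPKM in WT and at 12.0, 12.9 and 16.6 in cKO (1.29 ± 0.15, edgeR, adjusted p = 0.000391). These 3 were higher in each cKO sample than in any WT sample and lowest, among the cKO samples, in replicate 1.

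Adam8, a protease known from leukocytes, was at 0.89, 0.99 and 0.60 FPKM in WT and at 17.9, 15.6 and 9.29 in cKO (3.23 ± 0.37, edgeR, adjusted p = 0.000332). Adam12 (meltrin alpha), known from mesenchymal cells, was at 0.17, 0.12 and 0.22 FPKM in WT and at 8.52, 6.76 and 4.61 in cKO (4.44 ± 0.36, edgeR, adjusted p = 9.17e-05). Adam15 was at 3.64, 2.58 and 2.94 FPKM in WT and at 33.3, 25.4 and 24.2 in cKO (2.31 ± 0.21, edgeR, adjusted p = 0.000141). In contrast to Adam9, Adam10 and Adam17, these members were highest in cKO replicate 1.

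Adam33 was at 0.17, 0.18 and 0.15 FPKM in WT and at 6.02, 2.59 and 2.20 in cKO (3.51 ± 0.53, edgeR, adjusted p = 0.00106). Adam19 (meltrin beta) was at 0.21, 0.26 and 0.22 FPKM in WT and at 3.10, 2.83 and 3.0 in cKO (2.87 ± 0.23, edgeR, adjusted p = 8.84e-05). Adam33 shared the high value of replicate 1, and Adam19 was nearly level across the cKO samples. All 6 stromal fibroblast markers were also highest in that sample, at a sum of 3390 FPKM against 1327 and 1303. The sum of the macrophage markers was 1937 there against 1540 and 1102, of which Lyz2 alone made up 1677, 1337 and 912, and 4 of the 7 were highest there. In that sample, 5 of 7 peritubular myoid and 4 of 5 endothelial markers were also highest. Of the Leydig cell markers 2 of 5 were, and of the Sertoli cell markers 1 of 16 tested. The part of these cell types in these values was not tested.

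The somatic members without the zinc signature did not share a direction. Adam23 was at 0.33, 0.34 and 0.30 FPKM in WT and at 18.2, 10.96 and 10.3 in cKO (4.51 ± 0.33, edgeR, adjusted p = 6.88e-05), a rise near that of Adam12. Adam22 was at 2.80, 3.44 and 3.53 FPKM in WT and at 0.61, 1.02 and 0.91 in cKO (−2.09 ± 0.17, edgeR, adjusted p = 9.87e-05). Adam11 was at 3.05, 3.43 and 3.35 FPKM in WT and at 5.62, 2.23 and 2.03 in cKO, with groups that overlapped (−0.82 ± 0.45, edgeR, adjusted p = 0.135). Without cKO replicate 1, Adam11 fell by 1.38 ± 0.17 on the log2 scale (edgeR, adjusted p = 7.14e-05), and all 31 members tested then passed, beside 13757 of 15919 genes. With total-count scaling its change was 0.01.

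**Figure D4:**
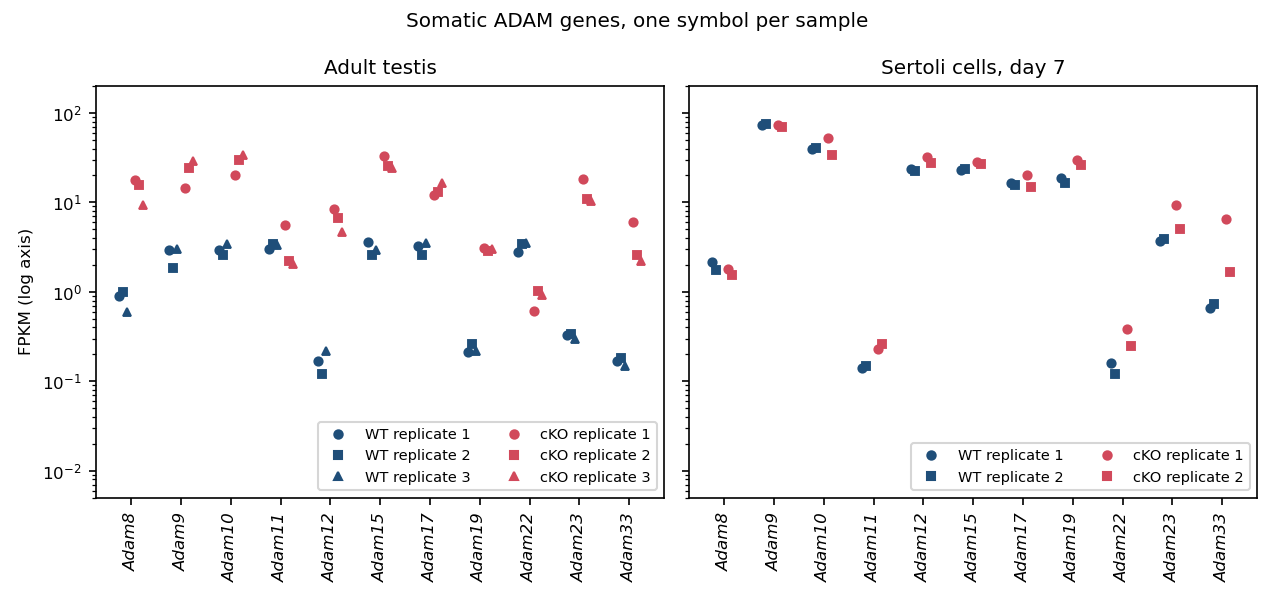
FPKM (log axis) of the 11 somatic ADAM genes in each sample of adult testis (left) and of Sertoli cells at day 7 (right), with symbols for the replicates. In adult testis 9 genes lie higher in cKO, where 42.4% of all genes tested have cKO above. Adam22 lies lower, where 43.1% have cKO below, and Adam11 overlaps. At day 7 cKO lies above WT for 5 of the 9 genes tested, against 24.8% of all genes tested, and 0 passed. Their mean FPKM differed from 1.17-fold for Adam15 to 5.90-fold for Adam33. Adam11 and Adam22, under the filter at day 7, also lie higher in cKO there.

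The summed FPKM of the somatic members was 20.4, 18.4 and 21.2 in WT and 140, 135 and 136 in cKO, with cKO replicate 1 like the others. Directions of the called members held under every scaling. The adult libraries have TMM factors between 0.710 and 0.761 in WT and between 1.27 and 1.42 in cKO, so that FPKM levels and fold changes are on different scales. Scaling by total counts moved the median of all genes from 0.01 to 0.87, where the medians of the somatic and sperm members were 3.24 and −5.62, and the split over all genes from 6503 higher and 6466 lower to 8615 higher and 4775 lower. Median-ratio scaling moved the median of all genes to −0.19. The epididymal members Adam7 and Adam28 had at most 3 counts in any adult sample and were not tested.

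The partners through which sperm ADAM proteins mature or reach the surface were measured beside them. Of 15 such genes tested in adult testis, 13 were lower (Rnase10 with its direction fixed by the filter), Tpst2 was higher and Tex101 did not pass, where 40.6% of all genes were lower and 40.9% higher. The median log2 fold change was −5.54, and −4.83 without cKO replicate 1, when 14 were lower, Tex101 among them. Calr3 (calsperin, a chaperone needed for ADAM3) had a mean of 125 FPKM in WT and 5.11 in cKO (−5.54 ± 0.17, edgeR, adjusted p = 2.70e-05), and its cKO samples lay close together, between 4.99 and 5.22. Ace, whose germ cell isoform acts on ADAM3 localisation, was between 187 and 205 FPKM in WT and between 25.8 and 28.4 in cKO (−3.26 ± 0.20, edgeR, adjusted p = 4.20e-05), and its somatic isoform was not separated. Prss55, a sperm serine protease, fell from a mean of 267 FPKM to 0.403 (−10.17 ± 0.82, edgeR, adjusted p = 9.31e-05), a change of −9.48 without cKO replicate 1. Tpst2, a tyrosine sulfotransferase also made in other tissues, rose from 3.87 to 35.2 (2.36 ± 0.35, edgeR, adjusted p = 0.00106).

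Regulators of the somatic proteases also differed. Of 14 tested in adult testis, 10 were higher and 4 lower, with a median of 2.82, where 81.5% of all genes passed, 40.9% higher. With total-count scaling 10 were higher and 2 lower, beside 8615 higher and 4775 lower of 15919 genes. Furin, which removes the prodomain of ADAM precursors, had a mean of 1.38 FPKM in WT and 26.1 in cKO (3.40 ± 0.15, edgeR, adjusted p = 2.79e-05). Timp3, an inhibitor of ADAM17, had 3.29 and 52.7 (3.15 ± 0.14, edgeR, adjusted p = 2.79e-05). Pacs2, a sorting protein that acts on ADAM17 traffic, fell from 48.4 to 11.7 (−2.77 ± 0.15, edgeR, adjusted p = 3.42e-05). Rhbdf1, an iRhom that carries ADAM17 out of the endoplasmic reticulum, was at 0.61 and 22.7 (4.36 ± 0.37, edgeR, adjusted p = 0.000112).

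Of 13 substrates or ligands tested in adult testis, 10 were higher and 3 did not pass, where 81.5% of all genes passed and 40.9% were higher. Notch1, Notch2, Tnf, Cd44 and Lgi3 reached 0.5 FPKM in cKO samples only, so for these 5 the filter fixed the direction, and of the other 8 genes 5 were higher. Notch2, cut by ADAM10, had a mean of 0.413 FPKM in WT and 6.41 in cKO, and Notch1 had 0.277 and 2.15. App, the amyloid precursor protein that ADAM10 cuts, had 23.7 and 188 (2.18 ± 0.16, edgeR, adjusted p = 7.14e-05). The macrophage, stromal fibroblast, Leydig cell and Sertoli cell sums given above were also higher in cKO. Within the cKO group, the summed FPKM of the regulators was lowest in replicate 1 (322 against 429 and 466). That of the substrates was highest there (328 against 298 and 310), as were the macrophage and stromal sums. The part of these cell types in the rises of the regulators and substrates was not tested.

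In Sertoli cells at day 7 the family was almost wholly somatic. The somatic members made up 99.3% to 99.6% of its FPKM in the 4 samples, and 0.895% to 0.948% of it in adult WT testis. The sum of the 8 sperm members in this table was 0.77 and 1.39 FPKM in WT and 1.28 and 1.15 in cKO, and 13 members of the adult table were not in it. Adam1a was the sperm member that passed the filter, at 0.48 and 0.89 FPKM in WT and at 0.71 and 0.66 in cKO, with groups that overlapped (0.04 ± 0.38, edgeR, adjusted p = 0.972). The cells carried Sertoli cell markers, such as Sox9 at 39.4 to 41.8 FPKM in WT and 10.2 to 25.7 in cKO, beside the myoid marker Acta2 at 1058 to 1097 in WT and 2091 to 2134 in cKO. The summed levels of all 7 myoid markers (2376 to 2515 in WT, 4115 to 4291 in cKO) and all 6 stromal markers (2152 to 2236 in WT, 3306 to 3920 in cKO) lay higher in cKO without overlap, as did that of 5 Leydig cell markers (149 to 156 in WT, 205 to 301 in cKO). The sum of 5 endothelial markers was also higher without overlap (30.5 to 32.4 in WT, 34.0 to 46.1 in cKO). The macrophage sums overlapped (32.39 to 36.6 in WT, 32.44 to 63.25 in cKO). The sums of 17 Sertoli cell markers (2583 to 2794 in WT, 1849 to 2084 in cKO), 14 spermatogonium markers (224 to 229.8 in WT, 158 to 159 in cKO) and 11 spermatocyte markers (16.9 to 21.1 in WT, 11.2 to 13.5 in cKO) lay lower without overlap. For comparison, the groups of 51% of all genes tested did not overlap at day 7, and no gene passed the test. Single genes carried much of some sums. Uchl1 had a WT mean of 157 FPKM among the spermatogonium markers, and Clu and Ctsl had 910 and 933 among the Sertoli cell markers. The part of these cell types in the values below was not tested.

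No member passed the test at day 7, 0 of 10, where 0% of 12880 genes passed (smallest adjusted p = 0.0961, edgeR). At an unadjusted p under 0.05 there were 1997 genes, or 15.5%, and 5 of the 10 members, all higher in cKO. DESeq2 called 579 genes, among them Adam19, Adam23 and Adam33. Groups did not overlap for these 5 of the 10 members, against 51% of all genes, with cKO above in each, against 24.8%, and with 0 below, against 26.1%.

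Adam9 was the most abundant member in Sertoli cells, at 73.8 and 75.9 FPKM in WT and at 73.6 and 70.2 in cKO, and its groups overlapped per scaled count (−0.02 ± 0.08, edgeR, adjusted p = 0.933). Adam10 came next, at 39.9 and 41.0 FPKM in WT and at 52.2 and 33.5 in cKO (0.13 ± 0.23, edgeR, adjusted p = 0.829). Adam17 was at 16.6 and 15.7 FPKM in WT and at 20.3 and 14.7 in cKO (0.16 ± 0.18, edgeR, adjusted p = 0.711). With 1 sample left out, the change of Adam17 ran from −0.096 to 0.38. The cKO samples of Adam10 and Adam17 lay on either side of the WT samples. Without cKO replicate 1 the change of Adam10 was −0.23 (edgeR, adjusted p = 0.0141) and without cKO replicate 2 it was 0.41 (edgeR, adjusted p = 0.000451), so its sign rests on which sample is used.

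Adam19 was at 18.7 and 16.4 FPKM in WT and at 29.7 and 26.5 in cKO (0.74 ± 0.12, edgeR, adjusted p = 0.149). Adam12 was at 23.6 and 22.4 FPKM in WT and at 32.0 and 27.8 in cKO (0.42 ± 0.10, edgeR, adjusted p = 0.218). Adam15 was at 23.2 and 23.5 FPKM in WT and at 28.0 and 26.8 in cKO (0.27 ± 0.08, edgeR, adjusted p = 0.262). Both cKO samples were above both WT samples for each, by amounts that did not pass over all genes. Their changes with 1 sample left out ran from 0.62 to 0.84 for Adam19, 0.31 to 0.52 for Adam12 and 0.23 to 0.30 for Adam15.

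Adam23 was at 3.68 and 3.86 FPKM in WT and at 9.35 and 5.10 in cKO (0.98 ± 0.31, edgeR, adjusted p = 0.278). Its change ran from 0.47 to 1.36 with 1 sample left out. Adam33 had the widest spread, at 0.66 and 0.73 FPKM in WT and at 6.55 and 1.65 in cKO (2.57 ± 0.72, edgeR, adjusted p = 0.245). Its change was 1.29 without cKO replicate 1 and 3.24 without cKO replicate 2, so the size of it rests on replicate 1. Adam8 was at 2.17 and 1.76 FPKM in WT and at 1.82 and 1.54 in cKO (−0.11 ± 0.22, edgeR, adjusted p = 0.841), with groups that overlapped.

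**Figure D5:**
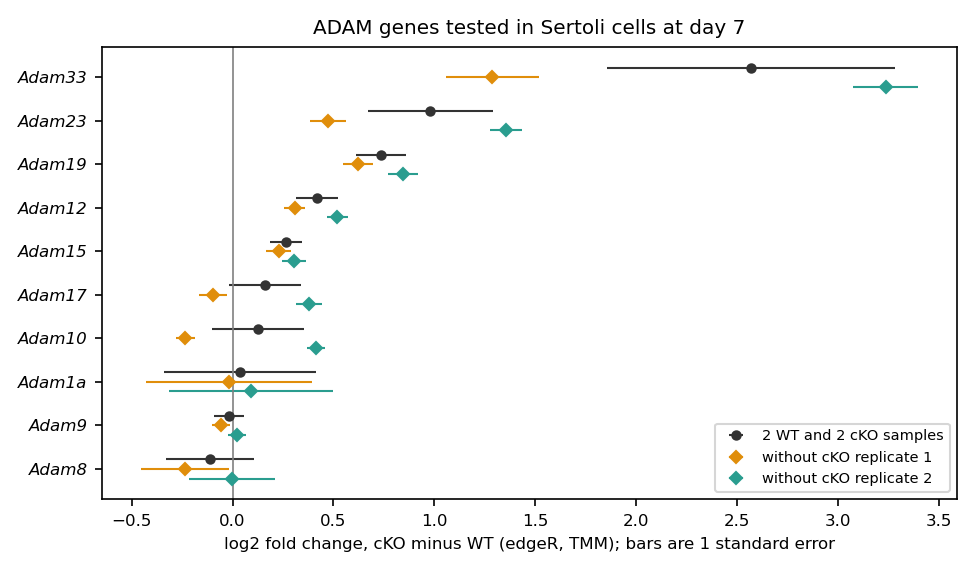
Log2 fold change (cKO minus WT, edgeR with TMM scaling) of the 10 ADAM genes tested in Sertoli cells at day 7, one row per gene. Circles use all 4 samples, diamonds leave out one cKO replicate, bars are 1 standard error, and Adam10 and Adam17 lie on opposite sides of 0 between the diamonds.

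The calls at day 7 rested on the spread between the cKO samples. With cKO replicate 1 left out, 6 members passed, Adam12, Adam15, Adam19, Adam23 and Adam33 higher and Adam10 lower, while 2757 of 12880 genes passed. With cKO replicate 2 left out, 7 passed, all higher, while 5136 genes passed. With either WT sample left out, 0 passed among the members and 0 among all genes. In these fits the lone sample is assumed to vary like the other group.

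None of the lists of partners, regulators and substrates had a gene that passed at day 7, with 6, 14 and 14 tested and medians of −0.04, −0.01 and 0.25 (edgeR). At an unadjusted p under 0.05 there were 1, 4 and 4 of them, against 15.5% of all genes (edgeR). Without cKO replicate 1, 3 regulators were higher and 3 lower, 1 substrate was higher and 3 were lower, and 0 partners passed, while 1255 genes were higher and 1502 lower of 12880. The medians were then 0.15 for the partners, 0.0018 for the regulators and −0.04 for the substrates. Hspa2, a germ cell chaperone among the partners, had a mean of 9.62 FPKM in WT and 7.21 in cKO (−0.38 ± 0.14, edgeR, adjusted p = 0.308), and Tpst2 had 41.7 and 46.0 (0.18 ± 0.09, edgeR, adjusted p = 0.396). Among the regulators, Pcsk7, a proprotein convertase, had a mean of 12.4 FPKM in WT and 16.6 in cKO (0.48 ± 0.10, edgeR, adjusted p = 0.173), and Rhbdf1 had 25.1 and 36.5 (0.58 ± 0.15, edgeR, adjusted p = 0.222). Furin, which rose in adult testis, had 53.6 and 41.3 (−0.33 ± 0.09, edgeR, adjusted p = 0.250). Of the 14 regulators, 7 had a change above 0 and 7 below. Timp1, an inhibitor of ADAM10, was the most abundant of them, at 1199 to 1235 FPKM in WT and 1236 to 1319 in cKO (0.11 ± 0.08, edgeR, adjusted p = 0.572). Notch1 had a mean of 6.57 FPKM in WT and 4.76 in cKO (−0.43 ± 0.08, edgeR, adjusted p = 0.169), and Hbegf, a growth factor shed by ADAM17, had 17.4 and 14.1 (−0.27 ± 0.09, edgeR, adjusted p = 0.306). Pcsk7, Rhbdf1 and Notch1 passed with either cKO replicate left out, and Hspa2, Timp1 and Hbegf only without cKO replicate 2 (edgeR).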

How the data were processed

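For day 7, the authors aligned reads with HISAT (GRCm38.p6), aligned them to genes with Bowtie2 and quantified genes with RSEM. For adult testis, the submitters' processing notes name HISAT, Bowtie2 and GRCm38.p6, and the quantifier is not given in the sources used here. The deposited columns hold estimated counts per gene, not normalized by the authors, FPKM values, and TPM values, which were not used. The adult table has 20 further columns without values, also not used.

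Estimated counts were rounded (10.7% to 13.2% of the values were not whole) and tested with the quasi-likelihood test of edgeR 4.0.16 (R 4.3.3) with TMM scaling, separately in each table, over genes with at least 0.5 FPKM in 3 (adult) or 2 (day 7) samples. Standard errors were derived from the log2 fold change and its F statistic. Alternatives were DESeq2 1.42.0, limma 3.58.1 on log2(FPKM + 0.1) and log2(FPKM + 1), other scalings and filters, a replicate block and each sample left out. The test was tried on simulated counts.

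Coding sequences came from GENCODE M21, promoters and coordinates from RefSeq. Members and lists were chosen with earlier results of these data known. Samples were grouped by their labels. All members were accounted for, those with a mean FPKM of at least 1 in a group or a passed test with the value in every sample, and 2 to 4 genes of lowest adjusted p in each list. Tpst2, Tex101, Timp1 and the named markers are not covered by the rule, and their values were known when they were picked. Depth was between 15431912 and 17705347 counts a sample, where the spread between samples limits most comparisons.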

Additional observations from a re-analysis of the deposited data

Results flagged for a closer look

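Adam5, Adam22 and Adam32 moved one way in adult testis and the other way in Sertoli cells at day 7, judged only by whether the samples of a group lay above or below all samples of the other. The difference between the tables was not tested. Adam5 had a log2 fold change of −6.06 in adult testis, and at day 7 it held 1 and 1 counts in WT and 7 and 6 in cKO. Adam32 changed by −5.87 in adult testis, and at day 7 it held 1 and 2 counts in WT and 2 and 5 in cKO, where its groups lay apart per scaled count. These are counts at which the level of a gene is hardly measured. Adam22 changed by −2.09 in adult testis, and at day 7 it held 25 and 18 counts in WT and 51 and 39 in cKO, with FPKM values of 0.16 and 0.12 against 0.38 and 0.25. None of the 3 passed the filter on low values at day 7.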

How the results depend on the processing

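In adult testis the count of members called was 30 under both other scalings, both other filters, DESeq2 and both limma fits, 28 with the replicate block, and between 28 and 31 with 1 sample left out. Of all 15919 genes, 12913 and 13390 were called under the other scalings, 13115 with DESeq2 and 13338 and 13508 with limma. The block called 12209, and leaving out 1 sample 12018 to 13757. The other filters called 14088 of 19983 genes and 11955 of 14615. The count of higher members was 8 or 9 under every alternative. The stricter rule (adjusted p under 0.001 and a change over 1) left 12 of the 21 lower members. With the replicate number as a block, 28 members were called in adult testis and 0 at day 7, and Adam2 and Adam32 no longer passed (edgeR, adjusted p = 0.0644 and 0.0529). Samples of the same number correlated in their deviations by 0.006 to 0.027 in adult testis and by 0.032 at day 7, so the numbers are not taken to pair them. At day 7 DESeq2 called 3 members, all higher. Leaving out 1 sample gave 0 to 7 called, 0 to 7 higher and 0 to 1 lower. Adam11 changed by 0.0059 in adult testis with total-count scaling. At day 7 the sign turned for Adam1a with total-count scaling (−0.0024). With 1 sample left out, the sign also turned for Adam1a (−0.33 to 0.53), Adam8 (−0.26 to 0.049), Adam9 (−0.058 to 0.020), Adam10 (−0.23 to 0.41) and Adam17 (−0.096 to 0.38). The cause was not tested. The list counts without cKO replicate 1 and under other scalings, and the listed genes with each sample left out, were added after seeing the data. Counts of 3 or fewer limit Adam7 and Adam28.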
